A study of Mus musculus with 12 samples.

Results

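Heme, the iron-holding ring that carries electrons and oxygen in cytochromes, catalase and globins, is built by a chain of enzymes that starts and ends in the mitochondrion and passes through the cytosol between. The first enzyme, 5-aminolevulinate synthase, sets the pace of the chain in most tissues, and its gene Alas1 is known to be repressed by heme, induced in liver by the coactivator PGC-1alpha during fasting and held down by insulin. Heme oxygenase 1, encoded by Hmox1, opens the ring again and releases iron, carbon monoxide and biliverdin. Fat is rich in enzymes that need heme, among them mitochondrial cytochromes and microsomal P450s.

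The genes examined were Alas1, Alad, Uros, Urod, Cpox, Ppox, Fech and Hmox1, 8 of the 8251 genes that a probe set with a single gene name reads on these arrays. Alas1 heads the group because of its values on these same arrays, so those values are given as a description without a test. The other 7 were named for their place in the pathway. Every probe set whose annotation names only one of these genes was taken, 11 in all, and Urod, Cpox and Ppox have 2 each. Of the 11 probe sets, 7 were bright enough to test, 1 for each gene except Ppox, whose probe sets are both dim, as are the second ones of Urod and Cpox.

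Perigonadal fat of 12 mice, labelled female, 6 months old and fed ad libitum, was measured with 1 Affymetrix array per mouse. The 3 overexpressors carry a Glut4 transgene driven by the aP2 promoter on the FVB strain, and their 3 controls are FVB littermates. The 3 knockouts are labelled adipose-Glut4-/-, and their 3 controls carry the aP2-Cre transgene, all 6 on a mixed background of C57B6, FVB and SV129. The aP2 promoter is active in adipocytes and is known to work in macrophages too. The 2 lines appear to have been processed separately, since their arrays bottom out at different intensities (21.9 for overexpressors and their controls, 22.27 for knockouts and theirs), so each mutant was read against its own control. Array medians lay between 185.8 and 219.4, with knockout control 3 and overexpressor 1 (188.1) as the dimmest. The tissue label was checked against adipocyte markers: all 8 of the 10 listed genes that are on the array passed the dimness filter, with Adipoq, the adiponectin gene, between 5196 and 6986.

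The targeted gene did not separate the overexpressor line. Slc2a4, the gene of Glut4, read 625, 1109.7 and 1042 on its probe set 102314_at in overexpressors, against 639, 583 and 1212 in their controls. The library labelled overexpressor 1 lay among the controls, and the one labelled overexpressor control 3 lay above every overexpressor (0.22, SE 0.26; limma adjusted p = 0.93). In the second line Slc2a4 read 378, 365 and 363 in knockouts, against 416, 514 and 614 in controls. Every knockout was lower but far from the floor (-0.43, SE 0.26; limma adjusted p = 1). A second probe set, 162385_i_at, stayed between 21.9 and 33.2 on all 12 arrays. Where these probes lie relative to the deleted part or the transgene is not given in the sources used here, and if outside them they check nothing. The groups below are those of the labels, and directions in the overexpressor line rest on labels that this gene does not bear out for those 2 libraries.

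Alas1 was lower in overexpressor fat and higher in knockout fat than in the controls of each line. Its probe set, 93500_at, read 589, 918 and 779 in overexpressors, against 965, 1083 and 1300.2 in their controls. Every overexpressor lay below every control of its line. The means were 762 ± 165 in overexpressors and 1116 ± 169.8 in controls (SD, n = 3 arrays each), a log2 fold change of -0.54 with a standard error (SE) of 0.19. It was -0.38 without the library labelled overexpressor 1 and -0.43 without the one labelled overexpressor control 3, the 2 whose Slc2a4 values went against their labels. In the second line it read 1160.1, 1275 and 1395 in knockouts, against 1033, 1028 and 709 in their controls. Every knockout lay above every control of its line. The means were 1277 ± 117 in knockouts and 923 ± 186 in controls (SD, n = 3 each), a log2 fold change of 0.47 (SE 0.19). The overexpressor effect minus the knockout effect was -1.01 on the log2 scale (SE 0.26).

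For comparison, the 3 overexpressors lay below all 3 controls at 6.51% of the 7454 tested probe sets, and the 3 knockouts above all 3 controls at 5.66%. Both held at once for 40 probe sets, or 0.537%, and 52 probe sets (0.698%) had a difference between the effects at or below that of Alas1. These shares describe where Alas1 lies and support nothing further, since the gene was chosen from such values.

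**Figure D1:**
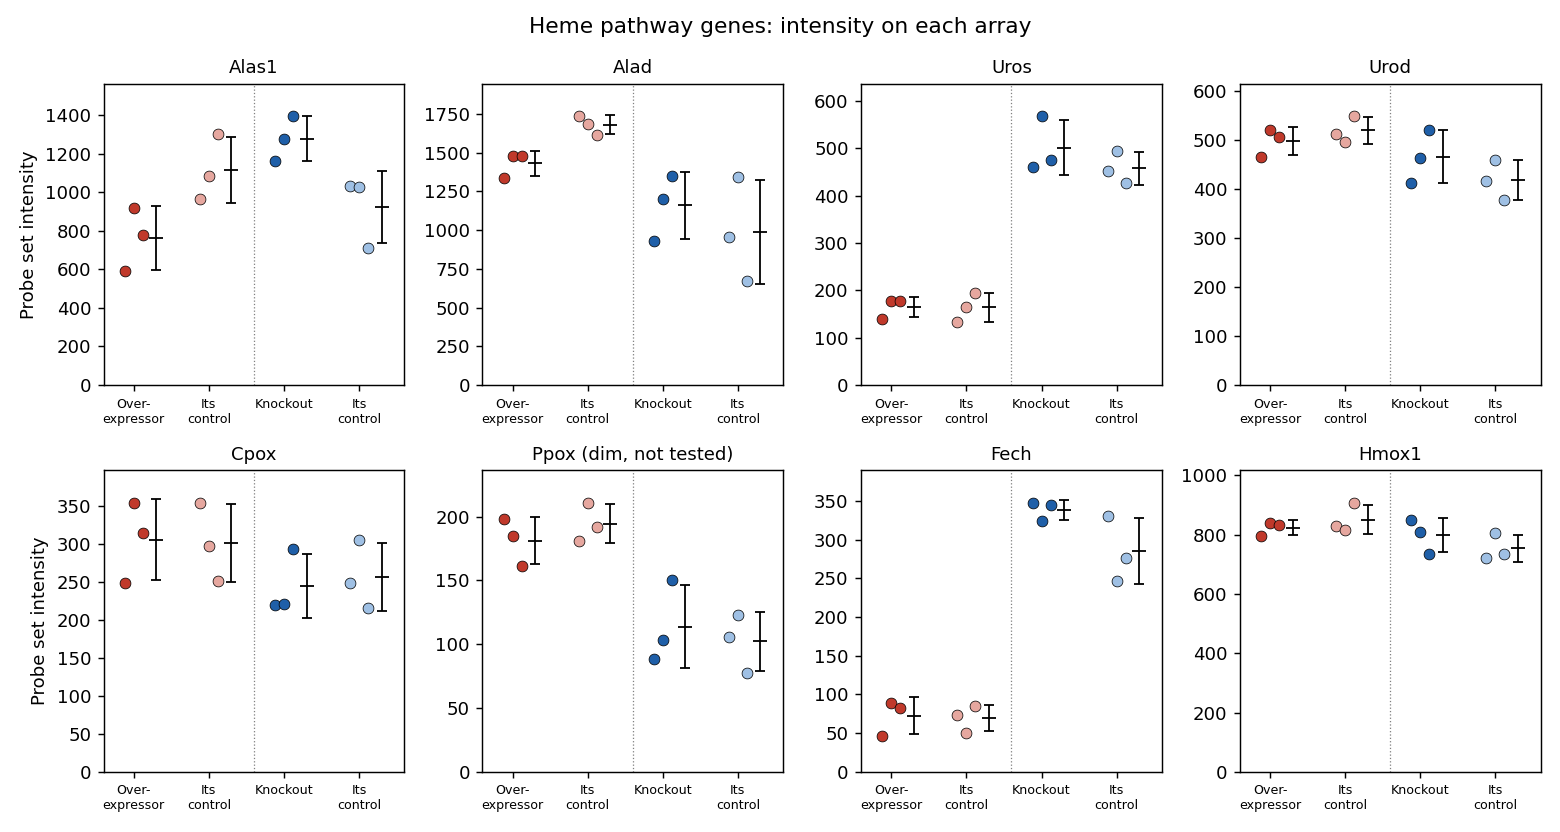
Intensity of the brightest probe set of each gene (vertical axes, linear, from 0) on each of the 12 arrays, by group along the horizontal axis; bars show the mean and SD of 3 arrays, and the dotted line parts the 2 lines, whose levels are not comparable. Alas1 sits between 589 and 918 in overexpressors, below their controls, and between 1160.1 and 1395 in knockouts, above their controls.

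Overall brightness moved with Alas1. The lowest Alas1 value of each line came from its dimmest array, overexpressor 1 in one and knockout control 3 in the other. After subtraction of each line's mean, the log2 value of Alas1 and the array median had a Pearson r of 0.71 over the 12 arrays (0.60 over the 6 of the overexpressor line, 0.85 over the 6 of the knockout line); the medians contain the same arrays' scaling, and this is a description. With each array's median log2 value subtracted, Alas1 stood at 1.48, 1.95 and 1.72 above the median in overexpressors and at 1.97, 2.16 and 2.47 in controls. The same quantity was 2.32, 2.43 and 2.54 in knockouts and 2.11, 2.14 and 1.74 in controls. Neither pair of groups overlapped on that scale, and the log2 fold changes were -0.48 and 0.43. Without the 2 dimmest arrays the log2 fold changes were -0.38 and 0.30, so knockout control 3 moved the knockout value by over 1.5 times.

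**Figure D2:**
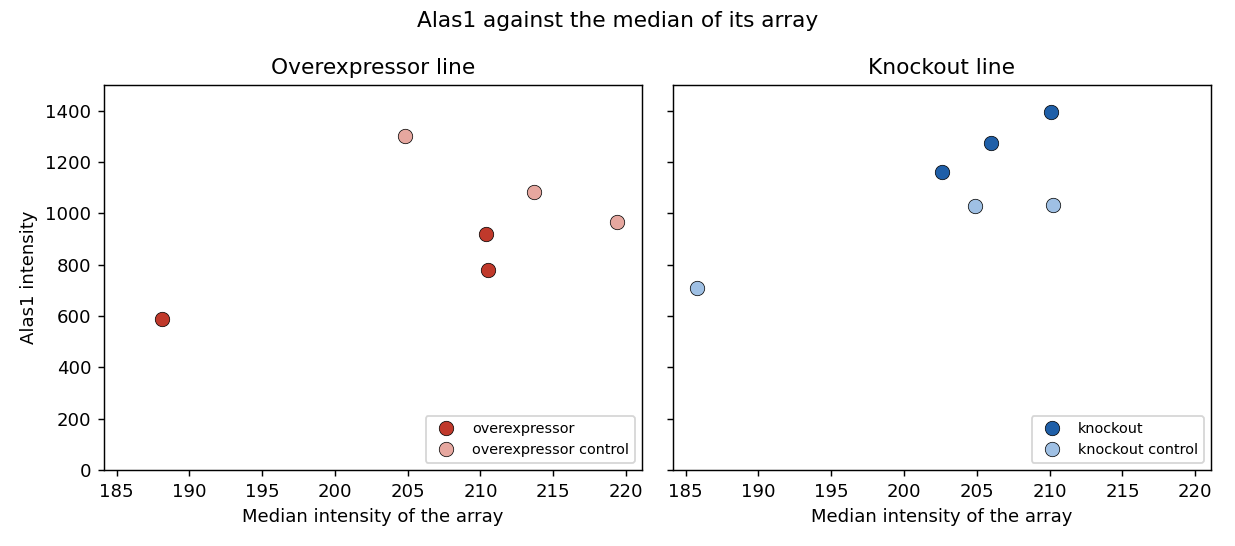
Alas1 intensity (vertical axis) against the median intensity of the same array (horizontal axis), with 1 point per array and the overexpressor line on the left, the knockout line on the right. The dimmest array of each line, with a median of 188.1 or 185.8, also has its lowest Alas1 value, 589 or 709.

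Markers of thermogenic adipocytes, which are dense in mitochondria, had medians of the same sign as Alas1 in both lines, but single arrays set their size. Of the 6 listed genes, 4 were bright enough to test, while Ppargc1a, which encodes PGC-1alpha, and Elovl3 were too dim. In overexpressors 3 of the 4 were lower (median log2 change -0.58) and in knockouts 3 of 4 were higher (median 0.71), with none called in either comparison. Of all tested probe sets, 70.3% were lower in overexpressors (median -0.07) and 63.1% higher in knockouts (median 0.04). The median in knockouts was 0.09 without knockout control 1, where Ucp1, the uncoupling protein gene, read 50.4, against 1232 and 808 in the other controls. Ucp1 read 1452, 711 and 1159 in knockouts, and knockout control 3, which had the lowest Alas1 of its line, was not low in it. In the other line Ucp1 read 111, 509 and 367 in overexpressors, against 241, 657 and 1226 in controls. There overexpressor 1 was lowest and overexpressor control 3 highest in Ucp1, Cidea and Cox8b, as in Alas1, but not in Dio2. In overexpressors the median was -0.18 without overexpressor 1 and -0.20 without overexpressor control 3, with 2 of 4 genes lower in each case. The summed intensity of the list ran from 889.6 to 2749 in overexpressors and 1448 to 4169.7 in controls, and from 3133 to 4484 in knockouts and 1033 to 4253 in controls. Ppargc1a stayed between 21.9 and 45.8 on all 12 arrays, near the floor. The groups overlapped in both lines, and the part of these cells in the Alas1 values was not tested. In a tissue sample, fewer cells of a type and less RNA per cell cannot be told apart. The adipocyte list, which holds Slc2a4, was even, with 4 of 8 genes higher and 4 lower in overexpressors (median -0.01), and 6 higher and 2 lower in knockouts (median 0.08). Other cell types leaned down with Alas1 in overexpressors, as did 70.3% of all tested probe sets. All 8 fibroblast and matrix genes (median -0.49), all 7 endothelial genes (-0.29), all 5 mesothelial genes (-0.24) and 10 of 11 stress and dissection genes (-0.20) were lower, none called. Part of this came from overexpressor control 1: without it the medians were -0.34, -0.22, -0.03 and -0.06, with 3 of 5 mesothelial and 7 of 11 stress genes lower. In that array Fos, an early response gene, read 577, against 139 and 74.2 in the other controls, and 169, 129 and 127 in overexpressors. In knockouts the same lists had 7 of 8, 4 of 7, 4 of 5 and 7 of 11 genes lower, with none called, beside 36.9% of all tested probe sets lower. B and T cell markers stood apart in both lines in the direction of Alas1 by their summed intensity, at 1917 to 2791 in overexpressors and 2832 to 2906 in controls, and at 3500.3 to 4268 in knockouts and 2382 to 2789.7 in controls. The sum includes Cd79a and Cd3g, which were too dim to test. Among single tested probe sets, 6.51% separated downward in overexpressors, 5.66% upward in knockouts and 0.537% in both ways at once. No such share was computed for sums. By gene, 4 of the 5 tested were lower in overexpressors (median -0.15), and 2 higher and 3 lower in knockouts (median -0.08). The knockout sum was carried by Ighm, an immunoglobulin heavy chain gene, at 1636, 2356 and 1742 in knockouts, against 842, 602 and 658 in controls (93583_s_at, 1.40, SE 0.20; limma adjusted p = 0.0155). It was the one call among the marker lists in either comparison. The call depended on single arrays of its line. Its limma adjusted p was 0.064 when knockout 3 was dropped and 0.104 when knockout 2 was. Dropping knockout control 2 gave 0.105, and dropping knockout control 3 gave 0.103. The call stayed when knockout 1 (0.0272) or its same-numbered control (0.0163) was dropped. Other Ighm probe sets did not all rise in knockouts. Of these, 93584_at was at 1.14 (SE 0.20; limma adjusted p = 0.0606), 97568_at at 0.01 (SE 0.10) and 99420_at at -0.80 (SE 0.31). The part of these cells in the Alas1 values was not tested either.

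The start of Alas1 holds letters known as the site of the factor NRF1, which drives many genes of mitochondrial proteins. Its letters, GCGCA, then any base, then GCGC, were searched on both strands of windows of 300 bases, 250 before and 50 after each RefSeq start (GRCm38.p6). Such a window was read for 6 of the 8 genes, and Alas1 has 2 starts. Both of its windows hold the same 2 matches, beginning 0 and 29 bases after the farther start, and Uros holds 1, at 47 bases before its farther start. Of 32851 windows in all, 4.60% hold a match. These stretches of 30 bases are shown because they set Alas1 and Uros apart from the other 4 genes searched, with the matched letters in capitals, 5′ to 3′ on the minus strand.
Alas1, first match, chr9:106247935-106247964: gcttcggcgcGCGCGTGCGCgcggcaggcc
Alas1, second match, chr9:106247906-106247935: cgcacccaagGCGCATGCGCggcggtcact
Uros, chr7:133709323-133709352: cggtcacactGCGCCTGCGCgagtcccgcc
A match is a description of letters and shows no binding, and Uros differed little between the groups of either line, as given below.

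Alad, Uros and Urod encode the enzymes of the cytosolic steps, from the joining of 2 aminolevulinate molecules to the trimming of the side chains of the ring. Alad, the aminolevulinate dehydratase, read 1335, 1475 and 1478 in overexpressors, against 1736, 1686 and 1616 in their controls (means 1429 ± 81.7 and 1679 ± 60.3, SD, n = 3 each). All 3 overexpressors lay below all 3 controls, the only member besides Alas1 whose groups did not overlap in that line, at a place where 6.51% of tested probe sets do the same. Its log2 fold change was -0.23 (SE 0.20; limma adjusted p = 0.921), and the shared estimate of spread behind this SE includes the knockout line, where Alad varied more.

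In that second line Alad read 927, 1201 and 1349 in knockouts, against 957, 1340.2 and 670.0 in their controls. The groups overlapped almost entirely, and the log2 fold change of 0.26 (SE 0.20; limma adjusted p = 1) rested largely on knockout control 3, without which it was 0.02. That array also gave the lowest Alas1 value of its line. Alad followed Alas1 over the 12 arrays after subtraction of line means (r = 0.70; 0.80 and 0.81 within the lines), which ranked it 494th of 5705 genes, and array brightness is shared by both.

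Upstream of its farther start, Alad has a match to the E-box CACGTG, the letters read by the clock factors BMAL1 and CLOCK and by USF. The 250 bases before that start, chr4:62520064-62520313 on the minus strand (GRCm38.p6), are shown because Alad and Alas1 were the members that separated in the overexpressor line, with the match in capitals.
Alad: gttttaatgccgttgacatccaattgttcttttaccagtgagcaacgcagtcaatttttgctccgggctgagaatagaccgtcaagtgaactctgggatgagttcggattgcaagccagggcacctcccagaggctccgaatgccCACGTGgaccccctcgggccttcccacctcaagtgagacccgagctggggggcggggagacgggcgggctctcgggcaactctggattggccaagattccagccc
Alad has another such match outside the stretch shown, 28 bases before its nearer start. Windows of 3 of the 6 genes hold CACGTG (Alad, Urod and Uros), as do 7.15% of all windows, and neither Alas1 window does. TGTTT, the core of forkhead sites, was found for Alas1, Ppox and Urod, and in 50.5% of all windows. AGGTCA, the core letters read by ROR and REV-ERB receptors, and TGACNNNGC, the core of the antioxidant response element, were found for 0 of the 6 genes, against 16.3% and 12.4% of all windows.

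Uros, the uroporphyrinogen synthase that closes the ring, read 140.3, 177 and 178 in overexpressors, against 133, 164 and 194 in their controls. It read 461, 568 and 475 in knockouts, against 452, 494 and 426 in their controls. The groups overlapped in both lines, with log2 fold changes of 0.02 (SE 0.13; 95% interval -0.27 to 0.30) and 0.12 (SE 0.13; interval -0.17 to 0.41). Urod, the decarboxylase that follows, read 465, 521 and 507 in overexpressors, against 513, 496 and 549 in controls. In knockouts it read 412, 464 and 521, against 416, 459.7 and 378 in controls. These groups also overlapped, at -0.06 (SE 0.11) in overexpressors and 0.14 (SE 0.11) in knockouts, and the first value changed sign under quantile normalization, subtraction of array medians or array weights. The second Urod probe set, 161328_i_at, was too dim to test and ran between 142 and 218 in overexpressors, where the controls ran between 131 and 149.8. It differed in sign from the first in both lines, at 0.23 (SE 0.14) and -0.08 (SE 0.14).

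Cpox, Ppox and Fech return the pathway to the mitochondrion, where the ring is oxidised and iron is put in. Cpox, the coproporphyrinogen oxidase, read 248, 354 and 314 in overexpressors, against 354, 297 and 251 in controls. Its knockout values were 219, 221 and 293, against 248, 305 and 216 in controls. The ranges nearly coincided in each line, with log2 fold changes of 0.02 and -0.06 (SE 0.16 each). The second Cpox probe set, 98506_r_at, was dim and gave 0.09 and 0.04 (SE 0.17 each).

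Ppox, the protoporphyrinogen oxidase, could not be tested. Its brighter probe set, 100429_at, read 198, 185 and 161 in overexpressors and 181, 211 and 192 in controls. In knockouts it read 88.2, 103 and 150.3, and in controls 106, 123 and 77.5. The ranges overlapped in both lines, at -0.09 and 0.11 (SE 0.16 each). The dimmer one, 161271_r_at, stayed between 49.0 and 80.0 on all 12 arrays.

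Fech, the ferrochelatase that inserts the iron, passed the dimness filter through the knockout line alone. It read 348, 324 and 345 in knockouts, against 331, 247 and 277 in their controls. One control lay inside the knockout range, and the log2 fold change was 0.23 (SE 0.17; limma adjusted p = 1). On the overexpressor line it was near the dim end, with 45.9, 89.4 and 83.0 in overexpressors and 73.2, 50.7 and 84.8 in controls (0.03, SE 0.17). That value ranged from -0.10 to 0.22 as single arrays were left out and was 0.38 with array weights.

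Hmox1 had the smallest SE of the 7 tested genes in both lines. It read 794, 841 and 834 in overexpressors, against 828, 817 and 908 in their controls. In knockouts it read 851, 808 and 736, against 722, 807 and 734 in controls. The groups overlapped in both lines, with log2 fold changes of -0.05 (SE 0.10; 95% interval -0.27 to 0.18) and 0.08 (SE 0.10; interval -0.15 to 0.30), and the first changed sign under quantile normalization, subtraction of array medians or array weights, or without overexpressor control 3. Hmox1 is strongly expressed by macrophages that clear red cells. All 10 tested macrophage markers were lower in overexpressors than in controls (median -0.28, none called; -0.05 with 7 of 10 lower without overexpressor control 1), with summed intensities of 6916 to 7649 in overexpressors and 6301 to 12875 in controls. In knockouts 7 of 10 were higher (median 0.06, none called), and the sums were 5763 to 8461 in knockouts and 5600.4 to 8137 in controls. Of all tested probe sets, 70.3% were lower in overexpressors and 63.1% higher in knockouts.

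**Figure D3:**
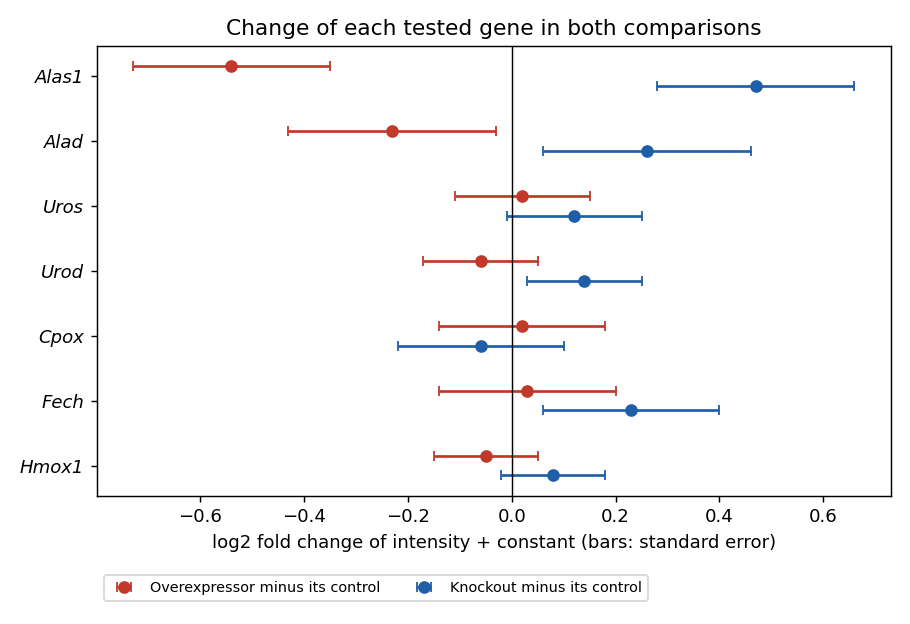
Log2 fold change (horizontal axis, on the scale of intensity plus a constant) of the 7 tested genes, with overexpressor minus control in red above knockout minus control in blue and bars of 1 standard error. Alas1 lies at -0.54 and 0.47, Alad at -0.23 and 0.26, and the other 5 genes between -0.06 and 0.23.

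Across the 6 tested genes besides Alas1, limma called 0 in overexpressors (0 also at an unadjusted p under 0.05), where 0.0805% of all tested probe sets were called and 4.76% passed unadjusted. It called 0 in knockouts (0 unadjusted), against 0.121% and 3.98%, and 0 for the difference between the effects (0 unadjusted), against 0.161% and 4.96%. Of these, Fech is too dim in the overexpressor line to inform its overexpressor value or the difference. In overexpressors 3 were higher and 3 lower, with a median of -0.01 (2 higher, 3 lower and a median of -0.05 without Fech), beside a median of -0.07 over all tested probe sets, 29.7% of which were higher and 70.3% lower. In knockouts 5 were higher and 1 lower, with a median of 0.13, beside 0.04 over all, 63.1% of which were higher and 36.9% lower. The direction of most of the pathway in knockouts was thus also that of most probe sets. For the difference between the effects, 5 of the 6 were below 0 (4 of 5 without Fech), with Alad at -0.49 (SE 0.29) and Cpox at 0.08 (SE 0.23).

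The erythroid form of the first enzyme is encoded by Alas2, known from red cell precursors. It read 378, 354 and 429 in overexpressors, against 258, 219 and 411 in controls, and 125, 207 and 179.5 in knockouts, against 209, 128 and 148 in controls. The groups overlapped, at 0.39 (SE 0.21; limma adjusted p = 0.916) and 0.07 (SE 0.21; adjusted p = 1). Blood was present in every sample, with the globin gene Hba-a1 between 2167 and 8071. The summed erythroid list (7 of 13 genes on the array, 6 bright enough to test) was 9726 to 10367 in overexpressors and 9006 to 10196 in controls, and 4326 to 8334 in knockouts and 6429.6 to 7893 in controls. Blvra, which reduces the biliverdin made by heme oxygenase, changed by 0.04 and 0.18 (SE 0.15 each). The Hmox2 probe set was too dim to test.

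Genes that bring or hold iron, the metal of heme, gave no call, with 3 at an unadjusted p under 0.05 in overexpressors and 1 in knockouts. Of all tested probe sets, limma called 0.0805% in overexpressors and 0.121% in knockouts, and 4.76% and 3.98% passed unadjusted. Of 20 listed, 11 were tested, with 5 higher and 6 lower in overexpressors (median -0.04), and 7 higher and 4 lower in knockouts (median 0.00). Hfe, whose protein binds the transferrin receptor and tunes hepcidin, read 381, 595 and 582 in knockouts, against 284, 159.9 and 184 in their controls. All knockouts lay above all controls (1.18, SE 0.20; limma adjusted p = 0.0535), as at 5.66% of tested probe sets, and Hfe was at -0.32 (SE 0.20) in overexpressors. In knockouts Hfe was called in 6 of 22 alternatives, among them without knockout 1 (adjusted p = 0.0196) or knockout control 1 (0.0144). It was not called without knockout 2 (0.395), knockout 3 (0.361), knockout control 2 (0.366) or knockout control 3 (0.314). Over the alternatives the limma adjusted p ran from 0.0144 to 0.684. Slc11a2, the importer DMT1, read 335, 378 and 340.5 in overexpressors, against 194, 236 and 285 in controls (0.51, SE 0.13; adjusted p = 0.457). Cp, the ferroxidase ceruloplasmin, read 447, 655 and 547 in overexpressors, against 347, 379 and 340 in controls (0.57, SE 0.17; adjusted p = 0.598). Nfs1, the cysteine desulfurase of iron-sulfur clusters, was at 0.04 and 0.15 (SE 0.11 each).

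Among 15 tested genes of heme-containing proteins, 11 were lower and 4 higher in overexpressors (median -0.13), and 11 higher and 4 lower in knockouts (median 0.11). Most tested probe sets leaned the same ways, with 70.3% lower in overexpressors (median -0.07) and 63.1% higher in knockouts (median 0.04). Of the 15, limma called 1 in overexpressors, where 0.0805% of all tested probe sets were called, and 0 in knockouts, against 0.121%. For the difference between the effects it called 1, against 0.161%. The list was chosen with earlier results of these data known. The call was the P450 gene Cyp2e1, at 1767, 2447 and 2235 in overexpressors, against 5580, 7491 and 5607 in controls (-1.52, SE 0.16; limma adjusted p = 0.00147, but 0.0678 in a fit of the line's own 6 arrays). It read 7005, 7457 and 7248 in knockouts, against 5828, 7951 and 7153 in controls (0.06, SE 0.16), and the effects in the 2 lines differed (-1.58, SE 0.22; limma adjusted p = 0.0148). The difference lost its call without overexpressor 3 (adjusted p = 0.0501), knockout 2 (0.0567), knockout 3 (0.0646) or the 2 dimmest arrays (0.0887), with the replicate number as a block (0.0804) and without the dimness filter (0.14). In the other 15 of 21 alternatives it was called, with adjusted p from 0.000985. Cyb5b, the cytochrome b5 of the outer mitochondrial membrane, read 1239, 1473 and 1119 in knockouts, against 675, 937 and 632 in controls, without a call (0.75, SE 0.22; adjusted p = 1). Nos3, the endothelial nitric oxide synthase, was at 0.32 (SE 0.13) in knockouts and Sqle at -0.32 (SE 0.14) in overexpressors, neither called. Sqle is a flavin enzyme of sterol synthesis and holds no heme, yet the list includes it and the counts of the 15 contain it.

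Known regulators of Alas1 and Hmox1 gave no call. Of 21 listed, 18 were on the array and 13 tested. Nrf1, Foxo1 and Ppargc1a were listed but not among those tested. Of the 13, 2 were higher and 11 lower in overexpressors (median -0.14), and 9 higher and 4 lower in knockouts (median 0.04). Of all tested probe sets, 70.3% were lower in overexpressors and 63.1% higher in knockouts. The heme-binding repressors Nr1d1 and Nr1d2, also called REV-ERB alpha and beta, were at 0.16 (SE 0.18) and -0.36 (SE 0.17) in overexpressors, and at 0.32 (SE 0.18) and 0.17 (SE 0.17) in knockouts. Lonp1, the mitochondrial protease that degrades the Alas1 protein when heme binds it, was at -0.23 and 0.22 (SE 0.17 each). Nfe2l2, the activator of Hmox1 under oxidative stress, was at -0.23 and -0.05 (SE 0.14 each). Of its 4 other tested targets, 1 was higher in overexpressors and 2 in knockouts, with Txnrd1 at -0.04 and 0.16 (SE 0.20 each), Srxn1 at -0.01 and 0.10 (SE 0.11 each) and Gsta4 at -0.41 and -0.17 (SE 0.26 each).

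Aminolevulinate is made from succinyl-CoA and glycine, and 6 of the 7 tested genes of their supply were lower in overexpressors (median -0.17) and 6 higher in knockouts (median 0.22), none called. Most tested probe sets leaned the same ways, with 70.3% lower in overexpressors (median -0.07) and 63.1% higher in knockouts (median 0.04). Dlst and Ogdh, subunits of the oxoglutarate dehydrogenase that makes succinyl-CoA, were at -0.24 (SE 0.24) and -0.23 (SE 0.20) in overexpressors, and at 0.34 (SE 0.24) and 0.22 (SE 0.20) in knockouts. Sucla2, a subunit of succinyl-CoA synthetase, was at -0.28 and 0.41 (SE 0.29 each), and Shmt2, which makes glycine from serine in mitochondria, at 0.14 and -0.01 (SE 0.10 each). Of 7 tested genes of heme transport and scavenging, 2 were higher and 5 lower in overexpressors (median -0.11), and 4 higher and 3 lower in knockouts (median 0.01). Hp, the haptoglobin that binds free hemoglobin, was at -0.64 and 0.26 (SE 0.37 each), Hebp1, a heme-binding protein, at 0.14 and 0.41 (SE 0.22 each), Hpx, the scavenger hemopexin, at -0.04 and -0.13 (SE 0.13 each) and Abcg2, a porphyrin exporter, at -0.20 and -0.03 (SE 0.18 each).

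The genes whose pattern was most like that of Alas1 were found by Pearson correlation of log2 values over the 12 arrays, after subtraction of each line's mean, among 5705 tested genes. Closest were Znrf2, a ubiquitin ligase (r = 0.95), Rbp4, the retinol-binding protein (0.93), Tpst2, a tyrosine sulfotransferase (0.93), the glycolytic enzyme gene Tpi1 (0.93) and Lpgat1, a lysophospholipid acyltransferase (0.93). Within each line of 6 arrays these 5 correlations were 0.90 to 0.98. Rbp4 averaged 2174 in overexpressors and 3019.8 in controls, and 3234 in knockouts and 2414 in controls. Lpgat1 averaged 602 in overexpressors and 866 in controls, and 998 in knockouts and 656 in controls. The most opposite were Mzf1 (-0.77), Htr3a (-0.79) and Rgs16 (-0.79). All these correlations share the arrays, their brightness and the group differences, and carry no p. Among the tested pathway genes, Urod came nearest (0.77, ranked 218th), then Alad, then Uros (0.56), Fech (0.50), Hmox1 (0.49) and Cpox (0.20). The second Urod probe set, too dim to test, went the other way (-0.35). The array median alone was at 0.71.

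**Figure D4:**
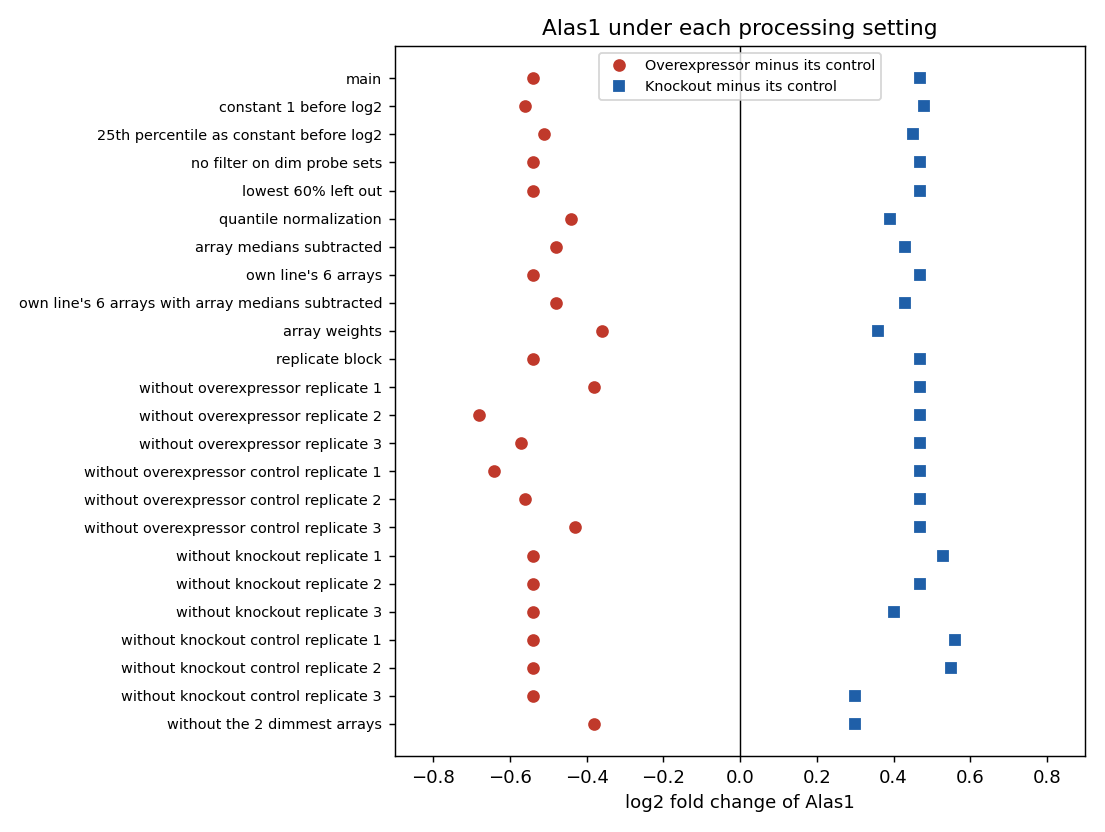
Log2 fold change of Alas1 (horizontal axis) under the setting used (main, top row) and under each processing alternative (rows), with overexpressor minus control as red circles and knockout minus control as blue squares. The values range from -0.68 to -0.36 and from 0.30 to 0.56, so each keeps its side of 0 in the rows shown.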

How the data were processed

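The file deposited by the authors gives a linear intensity for each probe set on each of 12 arrays. Per the labels' protocols, total RNA from an RNeasy kit was biotin-labelled by standard Affymetrix methods. How probes were summarised and arrays scaled is not given in the sources used here. Groups were read from sample titles, since the genotype field gives controls the value of their mutants. Values were transformed as log2(intensity + 36.92), adding the 10th percentile of the table, which understates changes of dim probe sets. The dimmest 40% by mean log2 (4968 of 12422) were set aside and 7454 tested with limma 3.58.1 in R 4.3.3 (means of 4 groups, trended eBayes, 8 residual and 4.32 prior degrees of freedom, Benjamini-Hochberg adjustment over all tested). An adjusted p of at most 0.05 is a call. Values of untested probe sets come from a fit without that filter. An exact permutation test of 3 against 3 cannot reach this threshold and was not used. The fit was also run on simulated data with independent noise and no shared array brightness, and no result given here rests on that run. The number of arrays limits the precision, and p-values measure only the spread between these mice.

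Names came from the platform annotation (10833 probe sets with 1 gene, 396 with several, 1193 with none), updated by gene ID, and 10817 matched. A listed gene was read from its brightest probe set. From each list, the genes with the 2 smallest p in either comparison and any call were named. Members and lists were chosen with earlier results of these data known. Alternatives covered the constant, the dimness filter, quantile normalization, subtracted medians, array weights, each line alone, a replicate block and single arrays left out. Same-numbered arrays did not pair: their deviations from group means correlated between -0.36 and 0.02.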

Additional observations from a re-analysis of the deposited data

Results flagged for a closer look

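Alas1 was singled out because its arrays moved opposite ways in the 2 lines: all 3 overexpressors lay below, and all 3 knockouts above, the controls of their line. The difference between the effects was -1.01 on the log2 scale (SE 0.26). That difference is given without a test, since Alas1 was chosen from these values.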

How the results depend on the processing

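The count of called genes besides Alas1 was 0 in each comparison under all alternatives run (23 for each line, 21 for the difference), with adjusted p no lower than 0.0746, 0.457 and 0.475. With the replicate number as a block it was also 0, and Alas1 stayed at -0.54 and 0.47; 0 of 12 arrays correlated best with their own number. Calls over all probe sets ranged from 1 to 411 in overexpressors (6 as reported), 0 to 15 in knockouts (9) and 1 to 44 for the difference (12). The highest counts came from array weights, whose iteration stopped early, and the count of 0 from the replicate block. Alas1 ranged from -0.68 (without overexpressor 2) to -0.38 (without overexpressor 1) and from 0.30 (without knockout control 3) to 0.56 (without knockout control 1) as single arrays were left out. Its difference between lines was -0.72 with array weights and -0.67 without the 2 dimmest arrays. Alad kept its sign in each alternative, at -0.25 to -0.13 and 0.02 to 0.50. Leaving out the 2 dimmest arrays, and the fit on a line's own 6 arrays with medians subtracted, were chosen after seeing the data. Uros, Urod, Cpox, Fech and Hmox1 changed sign in 3 to 5 alternatives each in overexpressors, and Cpox in 2 in knockouts, around values near 0. For the difference between the effects, sign changed in 2 alternatives for Uros, 3 for Cpox, 2 for Fech and 1 for Hmox1. Cyp2e1 lost its call in overexpressors in the fit of its own 6 arrays (adjusted p = 0.0678; 2.09e-05 to 0.0678 over 23 alternatives). Dim signals limit Ppox, which could not be tested, and, in the overexpressor line, Fech.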

Other observations

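With array medians subtracted, the log2 values of Alad stood at 2.61, 2.61 and 2.61 above the median in overexpressors and at 2.79, 2.78 and 2.77 in controls. In the knockout line the same quantity was 2.01, 2.35 and 2.49 in knockouts and 2.01, 2.51 and 1.67 in controls. Fitted to those first 6 arrays alone, limma gave Alad a log2 change of -0.23 (SE 0.11, unadjusted p = 0.0653, adjusted p = 0.89), and with medians subtracted as well -0.17 (SE 0.09, adjusted p = 0.952). These values were looked at after the separation of the groups had been seen.

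The 2 lines appear to have been processed separately and differ in strain, so these ranges are set side by side with no comparison drawn. Fech ran from 45.9 to 89.4 in the overexpressor line and from 247 to 348 in the knockout line. Uros ran from 133 to 194 in the overexpressor line and from 426 to 568 in the knockout line. The second Cpox probe set ran from 165 to 269.6 in the overexpressor line and from 33.9 to 55.3 in the knockout line, while the first ran from 248 to 354 and from 216 to 305. Of the 7454 tested probe sets, 1267 (17.0%) had ranges that did not overlap between the lines.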
